A study of Mus musculus with 16 samples.

Results

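Neurotrophic factors and their receptors were followed in the spinal cord of mice 6 weeks after spinal cord injury (SCI), with and without delayed statin treatment. The genes were Bdnf, Ntf3, Gdnf and Cntf, which encode secreted or released factors, and Ntrk2, Ntrk3, Gfra1 and Ret, which encode the receptors of the first 3. They were chosen by name, and all 8 were found among the 24411 gene symbols of the count table. Total RNA was sequenced from a 5 mm piece of thoracic cord of 16 female C57BL/6J mice, 1 library per mouse. Injury was a lateral compression of the cord to 0.25 mm, given at 12 weeks of age. Of the injured mice, 7 received atorvastatin, a statin that blocks cholesterol synthesis, by intraperitoneal injection at 10 mg/kg each day from week 2 after injury for 4 weeks (SCI + Atorvastatin), and 7 received the solvent mixture alone on the same schedule (SCI + Vehicle). The 2 Uninjured Control mice had neither compression nor injections, so injury, surgery and solvent cannot be told apart against them, and they were younger: the labels give 12 weeks for them and the methods a somewhat later age, while the injured mice were taken 6 weeks after injury at 12 weeks. Age and injury therefore cannot be told apart either.

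Neurotrophins are secreted as dimers and act on receptor tyrosine kinases of the Trk family. BDNF, the product of Bdnf, binds TrkB (Ntrk2), and NT-3, the product of Ntf3, binds mainly TrkC (Ntrk3). GDNF binds GFRA1, a receptor anchored to the membrane by a lipid, and the pair then engages the kinase RET. CNTF lacks a signal peptide for secretion and acts through CNTFR together with LIFR and gp130 (Il6st), which pass the signal to JAK kinases and STAT3. In the cord, TrkB is made by neurons and, as a form without the kinase, by astrocytes, RET marks motor neurons and parts of the sensory system, and CNTF is known mostly from Schwann cells and astrocytes.

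One of the 8 loci limits what its counts can show. In the GENCODE M21 annotation of GRCm38, Cntf (chr19:12763660-12765632, minus strand) lies wholly inside the last part of Zfp91, a zinc finger gene on the same strand (chr19:12763660-12796126). The transcript Cntf-201 is 1073 nt long with 594 coding nt in 2 exons, and 847 of its bases, 78.9%, are also part of the exons of the readthrough transcript Zfp91-203. The first 60 coding bases of Cntf are shown because they are the same bases in both transcripts, so that a read from them fits either. They lie at chr19:12765335-12765394 on the minus strand, begin at base 239 of Cntf-201 and at base 2387 of Zfp91-203, and are written with the start codon in capitals.
Cntf-201: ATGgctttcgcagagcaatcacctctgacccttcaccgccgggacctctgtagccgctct
The other 7 members have no protein-coding neighbor overlapping them on either strand. Bdnf (chr2:109674700-109727007, plus strand), Ntrk2 (chr13:58806569-59133970, plus), Ntrk3 (chr7:78175959-78738012, minus) and Gfra1 (chr19:58235604-58455909, minus) overlap annotated antisense RNAs. The library kit marks strand, but the strand setting used for counting is not given in the sources used here. Reads of those antisense RNAs therefore cannot be told apart from the members' own. Ntrk2 (C630044B11Rik) and Ntrk3 (Gm44607 and Gm39038) also overlap annotated genes on their own strand, which strand alone would not set apart. Ntf3 (chr6:126101412-126166910, minus), Gdnf (chr15:7810846-7837575, plus) and Ret (chr6:118151745-118197718, minus) overlap no other annotated gene.

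Depth was 14823292 to 25579826 counts per mouse, so that 3 counts, the most that counting error allows for a count of 0, equal 0.117 to 0.202 CPM, which are counts scaled to a common library size. The control libraries held fewer genes with any count, 12356 and 12732, than the injured ones with 16399 to 19338. Of 2170 genes averaging 10 to 40 counts in injured mice, 78.6% were at 0 in both controls, against 0.254% of 3548 genes averaging 1000 to 3000. At 50 to 200 counts it was 32.3% of 2882 genes. Of 3245 genes averaging 200 to 500 counts, 13.9% and 17.6% were at 0 in the 2 controls, against at most 0.247% in any injured mouse. Liver transcripts (6 genes) summed to 619.9 and 3996 CPM in the controls and to at most 6.347 CPM in any injured mouse. The labelled tissue was otherwise recognizable in every library by its neuron, astrocyte and oligodendrocyte markers. The part of the liver transcripts and of the genes missing from the controls in the results against Uninjured Control was not tested. Values of a low-count gene at 0 in both controls are read here only against the floor of 3 counts. That floor covers counting error alone, so a fold over it is no lower bound on the change from Uninjured Control.

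Between genes, levels were compared as TPM, a share of all transcripts that corrects for transcript length. Ntrk2 was the most abundant member in 16 of 16 mice. Its TPM was 127 at the lowest, 138 at the median and 167 at the highest in SCI + Atorvastatin, and the SCI + Vehicle mice ran from 127 to 170 with a mean of 149.8 ± 12.96 (SD, n = 7). The 2 Uninjured Control mice had 125 and 145 TPM. Ntrk3 followed, with 56.78 ± 10.02 TPM (SD, n = 7) in SCI + Atorvastatin, 59.39 ± 4.339 (SD, n = 7) in SCI + Vehicle, and 25.9 and 83.0 in the controls. Ntrk2 was above Ntrk3 in 16 of 16 mice and Ntrk3 above Gfra1 in 15, the exception being Uninjured Control mouse 1.

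The GDNF receptor pair was lower and nearly level with each other. Gfra1 stood at 33.91 ± 3.978 TPM (SD, n = 7) in SCI + Atorvastatin and 34.34 ± 3.384 (SD, n = 7) in SCI + Vehicle, with 37.4 and 34.0 in the controls. Ret stood at 24.61 ± 2.835 TPM (SD, n = 7), 29.31 ± 7.308 (SD, n = 7), and 41.4 and 27.0. Gfra1 exceeded Ret in 7 of 7 SCI + Atorvastatin mice but in 4 of 7 SCI + Vehicle mice and 1 of 2 controls, so the order of these neighbors was not the same in every mouse.

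The factors themselves were scarce next to their receptors, as the plot of TPM by mouse shows. Bdnf had 3.369 ± 1.618 TPM (SD, n = 7) in SCI + Atorvastatin, 3.361 ± 1.051 (SD, n = 7) in SCI + Vehicle, and 6.64 and 3.72 in the controls, below Ret in 16 of 16 mice. Cntf was listed between 1.25 and 12.5 TPM in the injured mice and at 0 in both controls, and it was above Bdnf in 9 of 16 mice. Gdnf reached at most 1.42 TPM and Ntf3 at most 1.56. Bdnf was above Gdnf in 16 of 16 mice, whereas Gdnf was above Ntf3 in only 10.

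**Figure D1:**
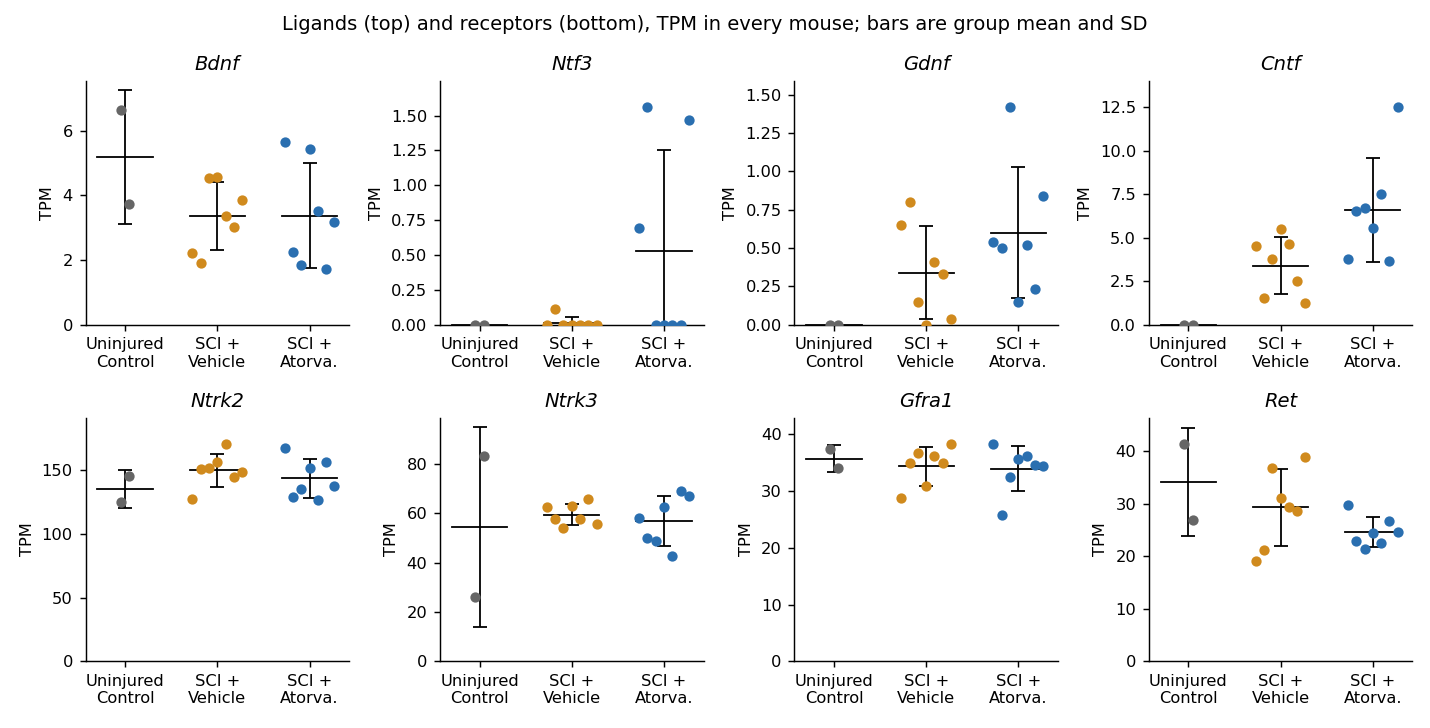
TPM of the 8 members in each mouse, by group, with every mouse as a point and the group mean ± SD. The receptors Ntrk2, Ntrk3, Gfra1 and Ret lie above the factors Bdnf, Cntf, Gdnf and Ntf3 in all 3 groups, and the 2 Uninjured Control mice lie apart from each other for Ntrk3 and Ret.

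To set mice side by side, counts scaled by TMM (trimmed mean of M-values) are given as CPM, and groups were compared with edgeR's quasi-likelihood test over 16091 genes with a mean above 1 TPM in at least 1 of 3 groups. A gene was called against Uninjured Control at a Benjamini-Hochberg adjusted p below 0.05 with a change over 25%, and between the treatments at an unadjusted p below 0.001 with the same change. By this filter 6 of the 8 members were tested. Gdnf and Ntf3 were below it in every group. No member was called in SCI + Vehicle vs. Uninjured Control, where 29.8% of all genes were, 1 was called (Ret, lower) in SCI + Atorvastatin vs. Uninjured Control, against 38.9% of all genes, and none between the treatments, against 0.106% (0.0870% higher and 0.0186% lower). The plot of log2 fold changes shows the estimates of the tested members except Cntf, with their intervals. The median log2 fold change over all genes tested was 0.17 for SCI + Vehicle and 0.21 for SCI + Atorvastatin against Uninjured Control, and member changes are to be read relative to it. Both comparisons share the 2 controls, so their values are set side by side and not counted as separate support.

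**Figure D2:**
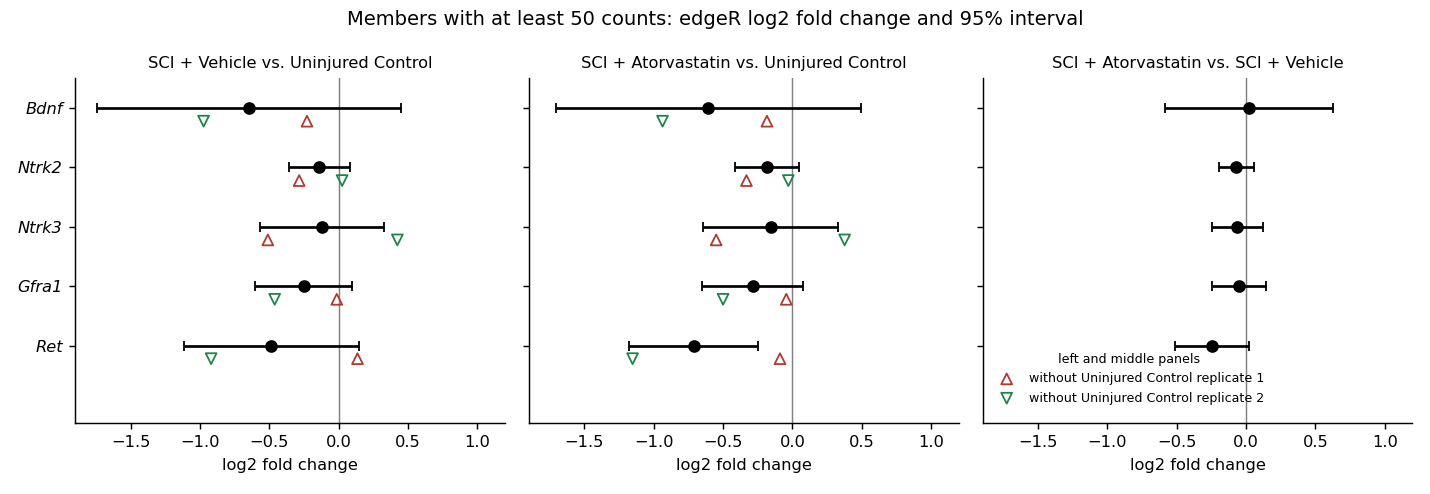
Log2 fold change (edgeR, counts) of each member tested, with its 95% confidence interval, in the 3 comparisons. Only the interval of Ret in SCI + Atorvastatin vs. Uninjured Control belongs to a call, and the intervals between the treatments all include 0.

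Ret, the signaling receptor of GDNF, was spread more widely in SCI + Vehicle than in SCI + Atorvastatin, with coefficients of variation of 26.0% and 7.98%. In SCI + Atorvastatin its CPM ran from 64.9 through a median of 70.0 to 81.6, and in SCI + Vehicle from 59.6 through 78.8 to 119. The controls had 159 and 76.2 CPM. All 14 injured mice were below control mouse 1, but 5 of 7 SCI + Vehicle mice and 1 of 7 SCI + Atorvastatin mice were above control mouse 2, so both ranges overlapped the controls. Against Uninjured Control, Ret was lower by edgeR in SCI + Atorvastatin with a log2 fold change of -0.71 (SE 0.208, 95% interval -1.18 to -0.25, adjusted p = 0.0210), and in SCI + Vehicle the value was -0.49 (SE 0.286, -1.12 to 0.15, adjusted p = 0.228). The SCI + Atorvastatin value rested on control mouse 1: without it, in a fit with a single control, the edgeR log2 fold change was -0.09, and the SCI + Vehicle value turned to 0.13. The call was absent with limma voom (log2 fold change -0.61, adjusted p = 0.460) and with limma on the TPM scale (-0.43, adjusted p = 0.0984). Of 16091 genes, voom called only 145 in this comparison and the TPM fit 6316.

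Between the treatments Ret had a log2 fold change of -0.25 for SCI + Atorvastatin relative to SCI + Vehicle (SE 0.128, 95% interval -0.51 to 0.018, unadjusted p = 0.0663, adjusted p = 0.728, edgeR). Within SCI + Vehicle, mice 3, 4 and 7 had 104, 89.8 and 119 CPM of Ret and the others 59.6 to 78.8. In mouse 3 the summed counts of 5 dorsal root ganglion markers were 67.4 CPM, against 9.209 to 32.37 in the other 13 injured mice. Mouse 7 stood apart in several cell types, with the highest summed neuron markers (7719 CPM) and oligodendrocyte markers (18010 CPM, against at most 14280) of any injured mouse. It also had the lowest sums for endothelium (115.6 CPM), fibroblasts (113.8) and Schwann cells (206.1). Mouse 4, the library with the lowest depth, was next lowest for fibroblasts (141.3 CPM) and Schwann cells (250.9). Without these 3 mice, which were also the highest for Ret in their group, the log2 fold change of Ret was 0.03. Since the mice left out are the highest for the same gene, this value is a description of their share in the difference and no test of it.

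Motor neuron markers (6 genes) summed to 108 to 129 CPM in SCI + Atorvastatin, 116 to 174 in SCI + Vehicle, and 237.5 and 301 in the controls, without overlap between injured and control mice. Neuron markers (6 genes) summed to 4518 to 5790, 4735 to 7719, and 8698 and 9680 CPM. In whole tissue, fewer cells of a type and less RNA per cell cannot be told apart, and the part of these cell types in the Ret values was not tested.

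Gfra1 encodes the receptor that binds GDNF first. Its CPM was 47.1 at the lowest, 58.7 at the median and 71.5 at the highest in SCI + Atorvastatin, 53.0, 56.8 and 70.2 in SCI + Vehicle, and 82.3 and 60.1 in the controls. The 2 injured groups overlapped almost completely, and both reached the level of control mouse 2 while all 14 mice stayed below control mouse 1. The edgeR log2 fold changes were -0.25 (SE 0.158, adjusted p = 0.254) for SCI + Vehicle and -0.29 (SE 0.163, adjusted p = 0.193) for SCI + Atorvastatin against Uninjured Control. Without control mouse 2, in a fit with a single control, the SCI + Atorvastatin value was -0.50. Between the treatments the value was -0.05, with a 95% interval of -0.25 to 0.14 (unadjusted p = 0.572, edgeR).

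Gdnf, the ligand of this receptor pair and a survival factor for motor neurons, had few counts. In SCI + Atorvastatin 7 of 7 mice had counts, 12 at the lowest, 31 at the median and 42 at the highest, or 0.584 to 1.896 CPM. In SCI + Vehicle the counts were 0, 12 and 37 at the lowest, median and highest, with 6 of 7 mice above 0, and both controls had 0. The SCI + Atorvastatin mice did not overlap the controls, while the 2 injured groups overlapped each other. Mean CPM was 8.30-fold the floor of 3 counts per control library in SCI + Atorvastatin and 3.89-fold in SCI + Vehicle. The floor covers counting error alone. A count of 0 in both controls was usual at this level, found for 78.6% of genes averaging 10 to 40 counts.

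Because Gdnf was below the TPM filter, its tests came from an edgeR fit without a gene filter. The adjusted p was 0.102 for SCI + Vehicle and 0.00203 for SCI + Atorvastatin against Uninjured Control. In the SCI + Atorvastatin fit 6822 of 20725 genes were called. Both values set injured mice against 2 controls at 0, which was usual at this level, so no change of Gdnf is read from them. Between the treatments the log2 fold change of Gdnf was 1.10 in favor of SCI + Atorvastatin (SE 0.816, 95% interval -0.58 to 2.78, unadjusted p = 0.189, edgeR), which was not called and whose interval includes differences of either sign. By CPM all 7 SCI + Atorvastatin mice were above the SCI + Vehicle median, and by TPM 5 of 7 were. The SCI + Vehicle mice with the fewest Gdnf counts, mouse 4 with 0 and mouse 7 with 1, were those with the lowest fibroblast and Schwann cell markers, whose part in the Gdnf values was not tested.

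Ntrk2, the receptor of BDNF, had the most counts of any member, 6718 to 11959 per mouse. Its CPM was 399, 415 and 474 at the lowest, median and highest in SCI + Atorvastatin, 410, 444 and 478 in SCI + Vehicle, and 438 and 542 in the controls. The spread was narrow in the injured groups, which overlapped each other and control mouse 1 but stayed below control mouse 2. The edgeR log2 fold change was -0.14 (SE 0.0998, adjusted p = 0.320) in SCI + Vehicle and -0.19 (SE 0.103, adjusted p = 0.184) in SCI + Atorvastatin against Uninjured Control, and both signs turned on the log2(TPM + 1) scale, to 0.15 and 0.083. Without control mouse 1, in a fit with a single control, the edgeR value for SCI + Atorvastatin was -0.33. Between the treatments the log2 fold change was -0.07 (95% interval -0.19 to 0.056, unadjusted p = 0.262, edgeR).

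Astrocytes, one source of Ntrk2, had summed markers (6 genes) of 6582 and 7837 CPM in the controls and 11300 to 13560 CPM in the injured mice, without overlap. Of these 6 genes, 4 were called higher in both comparisons. Aldh1l1 (log2 fold change -0.57 in SCI + Vehicle and -0.53 in SCI + Atorvastatin) and Slc1a2 (-0.20 and -0.21) were fitted lower and not called. The summed neuron markers moved the other way from the astrocyte sum. Deposited values are per gene, so full-length TrkB and the form without the kinase are counted together.

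Ntrk3, the receptor of NT-3, separated the controls from each other more than the treatments. Its CPM was 66.3, 79.4 and 96.2 at the lowest, median and highest in SCI + Atorvastatin and 79.7, 82.0 and 98.3 in SCI + Vehicle. The controls had 63.6 and 121 CPM, and all 14 injured mice lay between them. The edgeR log2 fold change against Uninjured Control was -0.12 (SE 0.204, adjusted p = 0.698) in SCI + Vehicle and -0.16 (SE 0.220, adjusted p = 0.609) in SCI + Atorvastatin. Which control was used set the sign. Without control mouse 1 the values were -0.51 and -0.55, and without control mouse 2 they were 0.42 and 0.38. Such fits hold a single control and no spread among controls, so only their fold changes are given. Between the treatments the log2 fold change was -0.06, with a 95% interval of -0.25 to 0.12 (unadjusted p = 0.490, edgeR).

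Bdnf, which encodes the ligand of TrkB, had 61 to 216 counts per mouse. Its CPM was 2.97, 4.99 and 8.89 at the lowest, median and highest in SCI + Atorvastatin, 3.025, 5.26 and 7.05 in SCI + Vehicle, and 10.4 and 6.21 in the controls. The injured groups overlapped fully, all 14 mice were below control mouse 1, and 5 were above control mouse 2. The edgeR log2 fold changes were -0.65 (SE 0.495, adjusted p = 0.355) for SCI + Vehicle and -0.61 (SE 0.495, adjusted p = 0.368) for SCI + Atorvastatin against Uninjured Control. Between the treatments the value was 0.02, and its 95% interval of -0.59 to 0.63 (unadjusted p = 0.940, edgeR) leaves room for a difference of either sign.

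Ntf3, which encodes NT-3, was at the limit of detection. In SCI + Atorvastatin 5 of 7 mice had counts, 6 to 18, and 2 had 0. In SCI + Vehicle mouse 2 had 16 counts, mouse 3 had 1 and the other 5 had 0, and both controls had 0. The groups overlapped, since each held mice at 0. In the fit without a gene filter Ntf3 had a log2 fold change of 1.73 in SCI + Atorvastatin relative to SCI + Vehicle (95% interval -1.48 to 4.95, unadjusted p = 0.278, edgeR), an interval that spans both signs. Mean CPM in SCI + Atorvastatin was 2.40-fold the floor of 3 counts per control library, which covers counting error alone. The SCI + Vehicle mean was below that floor and gives no fold.

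Cntf gave a different picture in each table. The count table held 20 Cntf counts in all, 7 in SCI + Atorvastatin mouse 5, 7 in SCI + Vehicle mouse 1 and 6 in SCI + Vehicle mouse 3, and 0 in the other 13 mice. In the TPM table Cntf was above 0 in all 14 injured mice, at 3.65, 6.55 and 12.5 at the lowest, median and highest in SCI + Atorvastatin and 1.25, 3.78 and 5.52 in SCI + Vehicle, and it was listed at 0 in both controls. The injured groups overlapped, and neither overlapped the controls.

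A joint gene row, Zfp91Cntf, was at 0 counts in all 16 mice but had 46.3 to 76.7 TPM in SCI + Atorvastatin, 39.9 to 80.5 in SCI + Vehicle, and 74.2 and 13.6 in the controls. Zfp91 alone had 36.3 and 98.4 TPM in the same controls, the reverse order. Summed over Zfp91, Zfp91Cntf and Cntf, the controls had 110.5 and 112 TPM, so their total was alike while its division among the 3 rows was not. The injured mice had sums of 115.8 to 164.4 TPM. The plot of the locus shows the 3 rows by mouse. The TPM came from a program that shares reads among overlapping transcripts, whereas how the whole-number counts were made is not given in the sources used here.

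**Figure D3:**
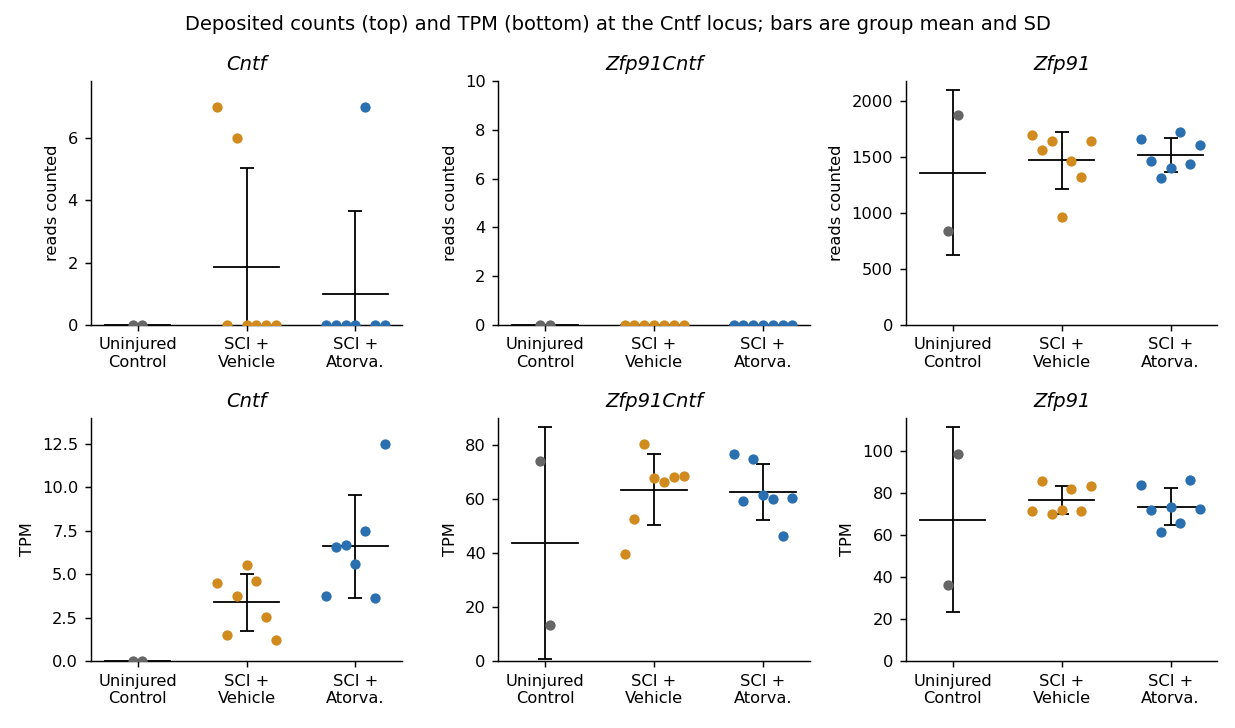
TPM of Cntf, the joint row Zfp91Cntf and Zfp91 in each mouse, by group. Cntf is listed at 0 in both Uninjured Control mice and at 1.25 to 12.5 in the injured ones, and the 2 controls hold opposite shares of Zfp91 and Zfp91Cntf.

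Since Cntf was listed at 0 in both controls, no fold is given against them. On the log2(TPM + 1) scale the difference of Cntf between the treatments was 0.81 in favor of SCI + Atorvastatin (SE 0.291, unadjusted p = 0.0147, adjusted p = 0.652, limma), short of the threshold of 0.001. In the SCI + Atorvastatin group 5 of 7 mice were above the SCI + Vehicle median. Schwann cell markers (6 genes) moved the same way between the treatments, with sums of 365 to 602 CPM (median 529) in SCI + Atorvastatin and 206 to 452 (median 373.5) in SCI + Vehicle. They were highest in the controls, at 582.5 and 753.8 CPM, where Cntf was listed at 0, and their part in the Cntf values was not tested. The counts do not bear on the difference, since 13 of 16 mice had none, and the share of reads that belongs to Cntf cannot be told apart from that of Zfp91Cntf.

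The partners of CNTF showed changes with ample counts, and are shown by mouse in the plot of partner genes. Il6st, which encodes gp130, had 317.0 ± 18.86 CPM (SD, n = 7) in SCI + Atorvastatin, 281.3 ± 33.55 (SD, n = 7) in SCI + Vehicle, and 149.6 and 143.4 in the controls. All 14 injured mice were above both controls, and the edgeR log2 fold change was 0.94 (SE 0.153, adjusted p = 0.00136) in SCI + Vehicle and 1.13 (SE 0.0905, adjusted p = 2.35e-05) in SCI + Atorvastatin. Between the treatments Il6st differed by 0.17 (95% interval 0.012 to 0.33, unadjusted p = 0.0365, adjusted p = 0.693, edgeR), which was not called.

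Cntfr, the subunit that binds CNTF, went down. It had 91.46 ± 15.36 CPM (SD, n = 7) in SCI + Atorvastatin and 103.5 ± 18.36 (SD, n = 7) in SCI + Vehicle against 158.2 and 199.4 in the controls, and all 14 injured mice were below both. The edgeR log2 fold change was -0.80 (SE 0.171, adjusted p = 0.00586) in SCI + Vehicle and -0.95 (SE 0.162, adjusted p = 0.00118) in SCI + Atorvastatin. Lifr, the third subunit, had 170.3 ± 7.872 and 174.4 ± 12.06 CPM (SD, n = 7 each) in SCI + Atorvastatin and SCI + Vehicle, between the controls at 144.8 and 220.9, with log2 fold changes of -0.09 and -0.08 that did not pass the test.

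Stat3, the transcription factor at the end of this pathway, had 136.4 ± 10.81 CPM (SD, n = 7) in SCI + Atorvastatin and 142.0 ± 20.53 (SD, n = 7) in SCI + Vehicle, all 14 mice above the controls at 73.7 and 92.1. It rose by 0.73 (SE 0.126, adjusted p = 0.00129) and 0.77 (SE 0.178, adjusted p = 0.00858) on the log2 scale, by edgeR. In all 14 injured mice the summed astrocyte and microglia markers were above both controls and the summed neuron markers below both. The 5 microglia or macrophage markers summed to 99.5 and 177 CPM in the controls and 670 to 1076 in the injured mice. The part of the change in cell types was not tested.

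**Figure D4:**
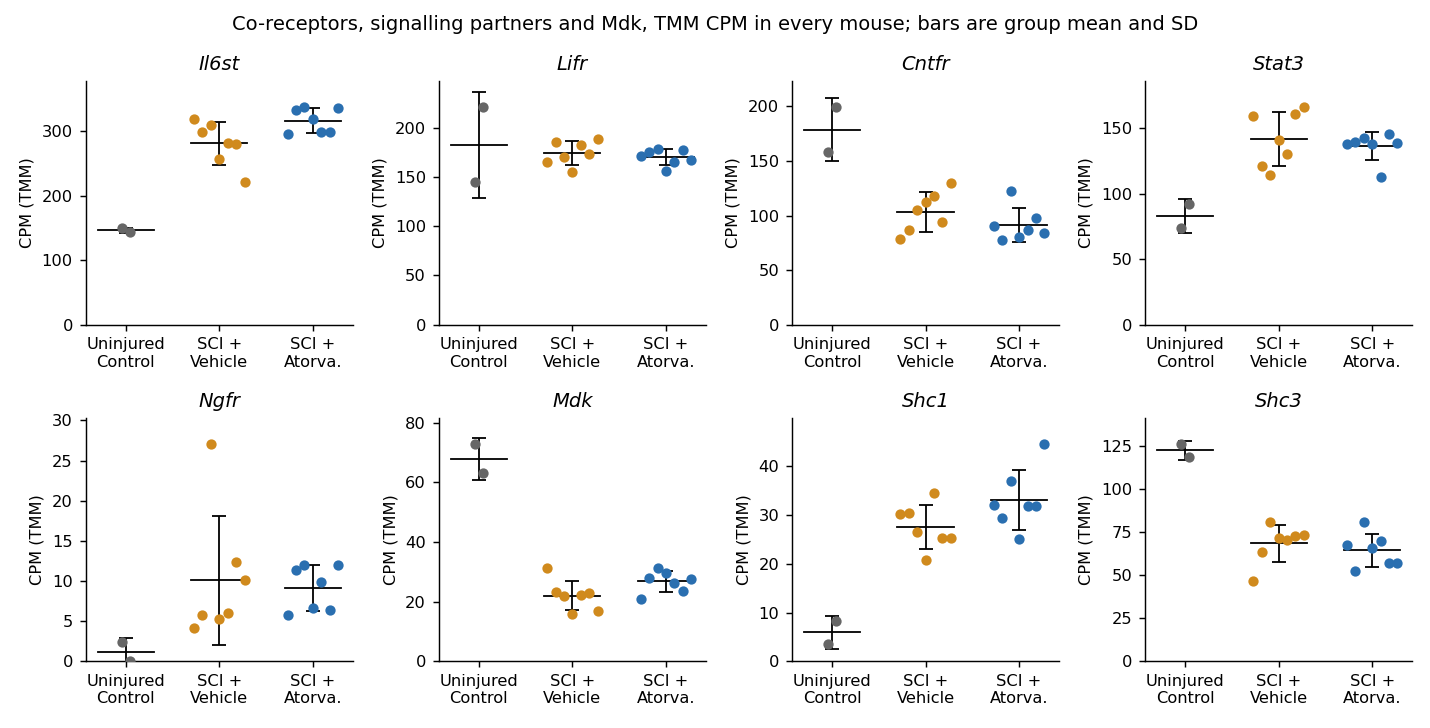
TMM CPM of partner receptors and signaling genes of the members, and of the growth factor gene Mdk, in each mouse, by group, with the group mean ± SD. Il6st and Stat3 lie above both Uninjured Control mice in all 14 injured mice, Cntfr below both, and Lifr between them at the group means.

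The wider pathways were counted from 4 lists of other genes, 69 in all, of which 62 passed the TPM filter. In SCI + Vehicle vs. Uninjured Control 14 were called higher and 6 lower, or 22.6% and 9.68%, against 19.9% and 9.91% of all genes. Against the same controls, SCI + Atorvastatin had 18 called higher and 10 lower, or 29.0% and 16.1%, against 24.9% and 14%. These shares were near those of all genes. Of the 14 and 18 called higher, 8 and 10 were at 0 in both controls. Between the treatments none was called, and 5 had an unadjusted p below 0.05 by edgeR (Erbb3, Il6st and Ptn higher, Sorcs2 and Sorcs3 lower in SCI + Atorvastatin). With limma voom, no gene of the 4 lists was called against Uninjured Control in either comparison. Voom called few genes of any kind, 131 of 16091 in SCI + Vehicle and 145 in SCI + Atorvastatin, so this is no trait of the lists.

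Of the 21 neurotrophin pathway genes tested, 2 were called higher (Shc1 and Nradd) and 3 lower (Frs3, Sh2b1 and Shc3) in SCI + Vehicle, and 3 higher and 4 lower in SCI + Atorvastatin, with Sorcs2 and Sorcs3 in place of Frs3 among the lower. Of those called higher, 1 in SCI + Vehicle (Nradd) and 2 in SCI + Atorvastatin were at 0 in both controls. The list's median log2 fold change was 0.03 in both. Without control mouse 1 more genes of the list were called higher than lower in both comparisons. The same held over all genes, and those fits have a single control, so the shift is not read as a trait of the list. The Shc genes encode adaptors that dock on active Trk receptors. Shc1, the widely expressed one, had 33.1 ± 6.157 CPM (SD, n = 7) in SCI + Atorvastatin, 27.55 ± 4.54 (SD, n = 7) in SCI + Vehicle, and 3.531 and 8.337 in the controls, with edgeR log2 fold changes of 2.49 (SE 0.366, adjusted p = 0.000523) and 2.20 (SE 0.383, adjusted p = 0.00195).

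Shc3, the neuronal adaptor, was lower in all 14 injured mice. It had 64.5 ± 9.637 CPM (SD, n = 7) in SCI + Atorvastatin and 68.55 ± 10.83 (SD, n = 7) in SCI + Vehicle against 126.4 and 118.7 in the controls, with log2 fold changes of -0.91 (SE 0.149, adjusted p = 0.000936) and -0.85 (SE 0.162, adjusted p = 0.00317) by edgeR. Shc1 and Shc3 thus changed in opposite directions. Ngfr, the low-affinity receptor shared by neurotrophins, had 4.176 to 27.1 CPM in the injured mice and 2.421 and 0 in the controls, and its log2 fold changes of 3.06 and 2.93 missed the threshold (edgeR adjusted p = 0.120 and 0.0810).

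Of the 14 GDNF family genes tested, Nrtn and Artn, which encode sister ligands of GDNF, were called higher in both injured groups and Sdc3, a proteoglycan that binds GDNF, lower. In SCI + Atorvastatin Grb7 was also called higher and Gfra4 lower. All genes of this list called higher were at 0 in both controls, and they are given as a description. Of the 10 genes with a mean above 1 TPM in every group, 0 were called higher in either comparison. Under that filter 10.2% and 14.4% of all genes were called higher in SCI + Vehicle and SCI + Atorvastatin. Mean CPM of Nrtn and Artn was 14.6-fold and 5.78-fold the floor of 3 counts in SCI + Vehicle, and 12.6-fold and 5.63-fold in SCI + Atorvastatin. Sdc3 fell by 0.52 (SE 0.134, adjusted p = 0.0155) and 0.56 (SE 0.123, adjusted p = 0.00499) on the log2 scale in SCI + Vehicle and SCI + Atorvastatin, by edgeR. The list's median was 0.09 and -0.07.

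The CNTF and gp130 family list held 10 genes with a mean above 1 TPM in every group, so that none of them was kept through the injured groups alone. Of these, 4 were called higher in SCI + Vehicle and 5 in SCI + Atorvastatin, where 10.2% and 14.4% of all genes under the same filter were called higher, and 1, Cntfr, was called lower in each. Under the wider filter 15 genes of the list were tested, and 9 and 10 were called higher (60.0% and 66.7%), with a median log2 fold change of 1.54 in both. These shares and the median draw on genes that passed the wider filter only through the injured groups, and are given as a description. Of the 9 and 10, those with counts in both controls were Il6st, Stat3 and Tyk2, joined by Jak2 in SCI + Atorvastatin. Tyk2, a kinase of this pathway, had log2 fold changes of 1.54 in both (SE 0.478 and 0.432, edgeR adjusted p = 0.0333 and 0.0175), though its controls differed, at 14.4 and 4.03 CPM. Osmr and Socs3, a receptor and a feedback inhibitor, were at 0 in control mouse 2 alone. The remaining 4 called higher were at 0 in both controls, among them the ligand genes Clcf1 and Ctf1. Their mean CPM was 22.9-fold and 7.91-fold the floor of 3 counts in SCI + Vehicle and 25.9-fold and 15.7-fold in SCI + Atorvastatin.

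Of 12 other growth factor genes of the cord, Hgf was called higher and Mdk lower in both injured groups. Hgf, which encodes hepatocyte growth factor, was at 0 in both controls and at 2.456 to 10.98 CPM in the injured mice. Mdk, which encodes the heparin-binding factor midkine, had 26.82 ± 3.521 CPM (SD, n = 7) in SCI + Atorvastatin, 22.09 ± 5.014 (SD, n = 7) in SCI + Vehicle, and 72.9 and 63.0 in the controls, with all 14 injured mice below both. Its edgeR log2 fold change was -1.62 (SE 0.242, adjusted p = 0.000845) in SCI + Vehicle and -1.33 (SE 0.164, adjusted p = 0.000196) in SCI + Atorvastatin.

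Across the 4 lists, 19 genes were called in both injured groups, out of 20 in SCI + Vehicle and 28 in SCI + Atorvastatin. Those called in SCI + Atorvastatin alone included Fgf1, Gfra4, Grb7, Jak2, Nrg1, Ptn, Sorcs2 and Sorcs3, and Frs3 was called in SCI + Vehicle alone. Whether the change of any of them from Uninjured Control differed between the treatments is a question for the comparison between the treatments. None was called there, which does not show that the changes were alike. Ptn, Sorcs2 and Sorcs3, but none of the others named here, had an unadjusted p below 0.05 in it by edgeR.

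How the members varied together was examined over the 14 injured mice with group means removed, for the 5 members with a mean of at least 50 counts, in 10 pairs. All values of a mouse share 1 library and its depth. Ntrk2 and Ret had the highest correlation, with Pearson's r = 0.61 (permutation p = 0.00483, adjusted p = 0.0483) and Spearman's rho = 0.70 (permutation p = 0.00444, adjusted p = 0.0444). Within SCI + Atorvastatin r was 0.79 (exact permutation p = 0.0278) and within SCI + Vehicle 0.75 (exact permutation p = 0.0528). Without the 2 mice farthest from the Ntrk2 median r was 0.45 (permutation p = 0.108), so the pooled relation rests in part on those mice.

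Bdnf and Ret had r = 0.54 (permutation p = 0.0359, adjusted p = 0.180) and rho = 0.62 (permutation p = 0.0173, adjusted p = 0.0866), which did not pass the correction, and r = 0.71 (permutation p = 0.0128) without the 2 mice farthest from the Bdnf median. Within SCI + Atorvastatin and SCI + Vehicle r was 0.39 and 0.73 (exact permutation p = 0.400 and 0.0603). The other 8 pairs, including Gfra1 with its co-receptor Ret at r = 0.45, had adjusted p-values of at least 0.236 by permutation. The plot of Ret against Ntrk2, Bdnf and Ntrk3 shows each mouse.

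**Figure D5:**
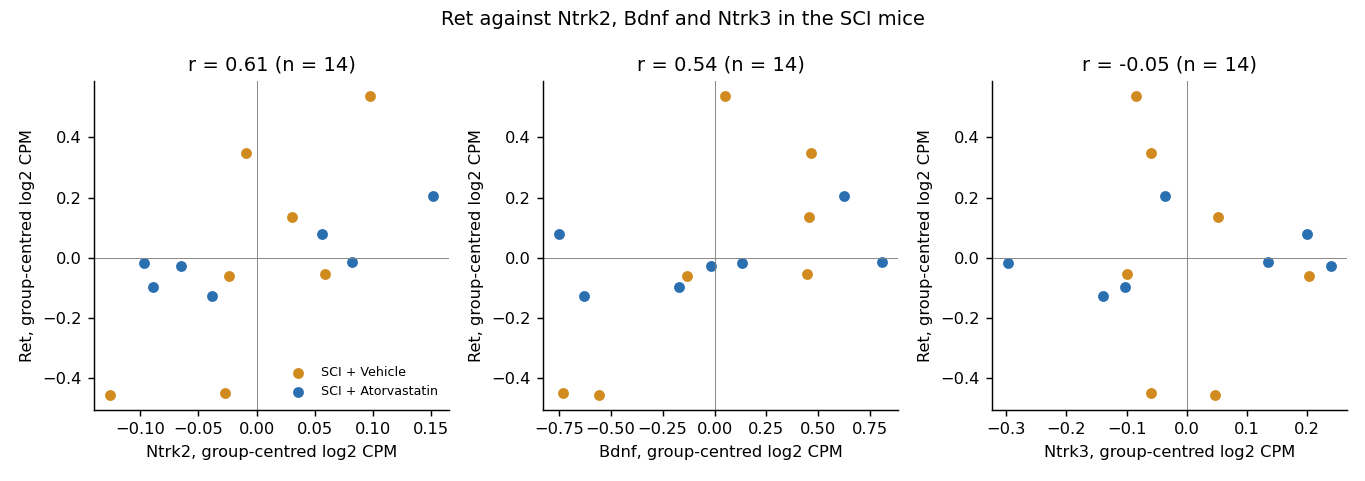
Log2 CPM of Ret against Ntrk2, Bdnf and Ntrk3 with the group mean removed, 1 point per injured mouse (n = 14). Ret rises with Ntrk2 (r = 0.61) and Bdnf (r = 0.54) but not with Ntrk3 (r = -0.05). The SCI + Vehicle mice spread further along the Ret axis than the SCI + Atorvastatin mice.

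Among the 16091 genes, those most like each member over the same 14 mice were listed by Pearson's r as a description. Ret was most like Pcbp3 (0.95), Polrmt (0.91) and Sept5 (0.91), and Ntrk2 most like Kif1b (0.93), Entpd7 (0.90) and Sgip1 (0.89). Bdnf was most like Zfp771 (0.88), Psmb4 (0.87) and Phactr1 (0.86). Lower maxima were found for Ntrk3, with Slc24a4, Tut1 and Anks6 at 0.84 each, and for Gfra1, with C130083M11Rik at 0.83 and Lrrc8c and Stoml2 at 0.81. No member was among the 3 genes most like another member.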

How the data were processed

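RNA was sequenced from 16 mice, 1 library each. The authors deposited a table of whole-number gene counts, with no normalization, and a table of TPM values, which correct for length and have 1 fixed sum per mouse. The submitters' processing notes name FastQC 0.12.1, Trimmomatic 0.38, STAR 2.5.4b and RSEM 1.3.1, with the mm10 build. The step from RSEM to the whole-number counts is not given in the sources used here. Columns were tied to mice by the labels. The replicates are separate mice.

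Counts were scaled by TMM and tested with edgeR 4.0.16 (quasi-likelihood) in R 4.3.3, within each pair of groups, over the 16091 genes whose mean TPM exceeded 1 in any of the 3 groups, with Benjamini-Hochberg adjustment. Calls needed a change over 25% and an adjusted p below 0.05, or between the treatments an unadjusted p below 0.001, the thresholds of the study's methods. DESeq2 1.42.0 and limma 3.58.1 (voom, and log2(TPM + 1)) were alternatives, beside other size factors, gene filters, fits over all groups, a replicate block and leaving out each mouse. Simulated 4-fold changes were set in 200 genes averaging at least 50 counts. The edgeR step recovered 58.0%, 61.5% and 98.0% in the SCI + Vehicle, SCI + Atorvastatin and between-treatment comparisons. All 3 were scored at an adjusted p below 0.05, so the last value does not describe the rule used between the treatments. At this setting, recovery was lower in the comparisons with 2 controls. Smaller changes were not simulated. Correlations used 100000 permutations within groups, or all orders within 1 group, two-sided. Intervals are 95%, and floors of 3 counts cover counting error only, since the reads carry no molecular identifiers.

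Named genes were the 8 members, genes of 4 pathway lists that were called (some results of these lists are not reported here), the partner receptors and ligands whatever their values, and the 3 genes most like each member by Pearson's r. Other list genes were named for their values seen afterwards (Ngfr and genes with an unadjusted p below 0.05 between the treatments). The members and lists were chosen with earlier results of these data known. Positions and sequence are from GENCODE M21 and GRCm38.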

Additional observations from a re-analysis of the deposited data

Results flagged for a closer look

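Among 30 sets of values checked for a mouse far from its group by Dixon's test, 2 met the limit, both for Ntf3 in SCI + Vehicle, and chance alone is expected to give some. Mouse 2 had 0.672 TMM CPM and 0.11 TPM, while the other 6 mice had at most 0.043 CPM and 0 TPM.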

How the results depend on the processing

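The 2 Uninjured Control mice set most of the dependence. Members called were 0 in SCI + Vehicle and 1 in SCI + Atorvastatin vs. Uninjured Control. Fits that left out a control hold a single control, so their calls are not given. Over all fits that left out 1 mouse, the log2 fold change in SCI + Vehicle ran from -0.92 to 0.13 for Ret, -0.51 to 0.42 for Ntrk3, -0.29 to 0.024 for Ntrk2, -0.98 to -0.23 for Bdnf and -0.46 to -0.01 for Gfra1. In SCI + Atorvastatin it ran from -1.15 to -0.09 for Ret, -0.55 to 0.38 for Ntrk3, -0.33 to -0.03 for Ntrk2, -0.94 to -0.18 for Bdnf and -0.50 to -0.04 for Gfra1. The lowest values of Ret and Gfra1 came without control mouse 2, and those of Ntrk3 and Ntrk2 without control mouse 1. Between the treatments Bdnf ran from -0.14 to 0.13 and Ret from -0.32 to -0.15, and no member was called in any of these fits. List genes called fell as low as 15 and 22 when 1 injured mouse was left out, against 20 and 28 with all mice. They rose in both comparisons with DESeq2 and with all 3 groups in 1 fit. In the CNTF and gp130 list each of these called 11 genes higher in either comparison, against 9 and 10. Genes called over all rose too, to 6000 and 7207 with DESeq2 against 4789 and 6260.

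With limma on log2(TPM + 1), 1 member was called in SCI + Vehicle vs. Uninjured Control, where 4452 of 16091 genes were. This member was Cntf, which is listed at 0 in both controls. The fold changes that turned sign on that scale were those of Ntrk2 (0.15 and 0.083) and Ntrk3 (0.34 and 0.26) in SCI + Vehicle and SCI + Atorvastatin, of Frs3 in SCI + Vehicle (0.0015) and of Bdnf between the treatments (-0.042). Without a gene filter 2 members were called in SCI + Atorvastatin vs. Uninjured Control, where 6822 of 20725 genes were. With limma voom 0 members were called there, and 145 of 16091 genes in all. With a mean above 1 TPM required in every group, 10 and 15 list genes were called, from fewer genes tested. With voom the counts were 0 and 0, where 131 and 145 of all 16091 genes were called, and the cause was not tested. Excluding SCI + Vehicle mice 3, 4 and 7, chosen after seeing the data and the highest for Ret in their group, turned Gfra1 (0.0025) and Ret (0.033) between the treatments. Among correlations, Bdnf with Ntrk3 (0.0103), Ntrk3 with Gfra1 (0.034) and Ntrk3 with Ret (0.054) turned sign on the TPM scale, Ntrk2 with Ntrk3 (-0.45) and Ntrk3 with Gfra1 (0.11) within SCI + Vehicle, Ntrk2 with Gfra1 (-0.13) and Ntrk3 with Ret (0.25) within SCI + Atorvastatin, and Ntrk2 with Gfra1 (-0.21) without 2 mice. Over all alternatives, 264 member fold changes kept their direction and side of the threshold, 17 turned sign, 5 passed the threshold and 4 no longer did. For called list genes these were 338, 1, 0 and 113.

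The replicate numbers are shared between groups only as numbers: same-numbered SCI + Atorvastatin and SCI + Vehicle mice correlated at -0.15 to 0.087. With the replicate number as a block, 0 members were called in SCI + Atorvastatin vs. Uninjured Control (Ret log2 fold change -0.59, edgeR adjusted p = 0.764). List genes called were 0 and 0 against Uninjured Control. Of all 16091 genes, that block left only 83 called in SCI + Vehicle and 42 in SCI + Atorvastatin. Bdnf was at -0.013 between the treatments with the block.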
